A study of Mus musculus with 40 samples.

Results

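The transition described here is the growth of the mouse oocyte between the secondary follicle and the small antral follicle. The samples were taken by the follicle stage in their titles, which gave 16 of the 40 samples of the series: 4 replicates of each stage on the Affymetrix mouse 430A array and 4 of each stage on the companion 430B array. Secondary oocytes came from SJLB6 females aged 12 days, with 60 oocytes pooled per sample. Small antral oocytes came from SJLB6 females aged 17 days, with 30 oocytes pooled per sample. Oocytes of primary follicles (females aged 6 days, 90 oocytes per sample) and of large antral follicles (24 days, 20 oocytes per sample), 4 replicates of each on each array, supplied a shared estimate of the spread and the neighbouring levels. No treatment or mutant allele was named for any group, and all were described as collected in vivo. Total RNA was purified with a Picopure kit, amplified with the Affymetrix small-sample labelling assay, version II, and labelled with biotin. Stage, age of the female and number of pooled oocytes change together in these samples, so their effects cannot be told apart. The replicates are described as biological, but the animals behind each are not named, so the p-values measure the spread between these samples.

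During this interval the follicle gains further layers of granulosa cells and opens a fluid-filled cavity, the antrum, while the oocyte approaches its full size. The oocyte is held in prophase of the first meiotic division throughout, builds its zona pellucida, exchanges small molecules with granulosa cells through gap junctions, and stores messenger RNA and protein for the meiotic divisions and the early embryo. Near the end of growth it acquires the ability to resume meiosis, and transcription is later shut down until the embryo starts its own.

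The 430B samples titled small antral, replicates 2 to 4 (3 samples), carry a protocol text that names 12-day-old females and 60 oocytes, the text of the secondary samples. They were kept in the group of their title. Among 90 genes that changed at least 2-fold on the 430A array and had a tested probe set on 430B, the single small antral 430B arrays lay in the 430A direction for 68.9% (replicate 1), 75.6%, 71.1% and 71.1% (replicates 2 to 4) of the genes. The secondary arrays did so for 43.3% to 54.4%. The 3 arrays in question therefore gave shares at or above that of replicate 1, whose protocol text matches its title.

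The arrays of the 2 stages separated on both array types. Each array's mean correlation with the other arrays of its own stage was 0.964 to 0.968 on 430A, against 0.939 to 0.950 with the arrays of the other stage. On 430B the corresponding values were 0.883 to 0.893 and 0.866 to 0.878. Oocyte transcripts dominated both stages: the 10 oocyte markers tested on 430A summed to a signal of 148830.8 to 160555.9 in secondary and 132768.2 to 150426.1 in small antral oocytes. These sums were lower on average in small antral oocytes (exact permutation test, two-sided, p = 0.0571). Of 12 tested oocyte markers 3 fell (25%, against 9.27% of all tested genes) and none rose. The 13 markers of granulosa and cumulus cells tested on 430A summed to far less, and to more in the small antral samples. Their sums were 2840.3 to 3217.5 in secondary and 3640.6 to 4167.3 in small antral samples (exact permutation test of the sums, two-sided, p = 0.0286, the smallest that 4 against 4 allows). Of 18 tested granulosa genes 5 rose (27.8%, against 5.75% of all tested genes) and none fell. The risen ones were Inha, Kitl, Fst, Esr2 and Cdh2, the last with means of 370.4 and 786.4. The other tested members were not called, with log2 changes from -0.27 (Slc38a3) to 0.84 (Greb1). Among them were Foxl2, with 430B means of 1728.7 and 1811.6, and Nr5a2, with 430A means of 997.8 and 908.6. Amh stood near background at 13.8 and 17.7. The summed signals of 3 further lists of ovarian cell markers were also higher on average in small antral samples, and that of the surface epithelium was lower. The summed signal of theca, stroma and fibroblast genes was 1119.9 to 1285.1 in secondary and 1463.1 to 1672.0 in small antral samples (exact permutation test, p = 0.0286). Endothelial genes summed to 981.8 to 1213.0 and 1195.1 to 1440.4, and blood and immune genes to 629.2 to 766.7 and 752.0 to 921.2 (exact p = 0.0571 for each). One gene rose in each of these 3 lists, of 9, 7 and 6 tested, and none was called as a fall. The log2 changes of their tested members were mixed in sign, from -0.95 (Ptprc) to 0.80 (Hsd3b1). The surface epithelium list had mean sums of 1011.7 in secondary and 568.1 in small antral samples (exact permutation test, p = 0.0286). Its only called gene was Krt8, described below. The part of such cells in the changes described below was not tested.

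Signals were scaled on each array to a trimmed mean of 500, and log2 changes were taken after adding 32 to each signal, which understates the change of low signals. A rise or fall is therefore relative to the other signals of the array. The amount of message per oocyte was not measured. All tests of single genes are limma's moderated test over the 16 arrays of a table without the primordial stage, with p-values adjusted by the Benjamini-Hochberg method over every tested probe set of that table. A probe set was called at an adjusted p under 0.05. Errors given with log2 changes are standard errors (SE), and the arrays are listed in the order of replicates 1 to 4.

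More probe sets fell than rose, by a margin on 430A that depended on the scaling of the arrays. On 430A, 1078 of 14924 tested probe sets rose (7.22%) and 1674 fell (11.2%), so that 18.4% were called. Changes of at least 2-fold were made by 171 called probe sets that rose (1.15%) and 319 that fell (2.14%). On 430B, 400 of 17887 rose (2.24%) and 606 fell (3.39%), which is 5.62% in all, and 163 (0.911%) and 254 (1.42%) passed 2-fold. The SE of the change was 0.16 for the median probe set of 430A and 0.34 for that of 430B. Leaving out the 3 small antral 430B samples with the secondary protocol text left 1 small antral array against 4, so that this array is assumed to vary like those of the other groups. The median SE was then 0.51, 105 probe sets rose and 312 fell on 430B, and the share of rises among the called probe sets was then 25.2%, against 39.8% with them. With 1 probe set per gene over both arrays, 858 of 14925 genes rose (5.75%) and 1384 fell (9.27%); these last shares are the background for every gene group below.

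**Figure D1:**
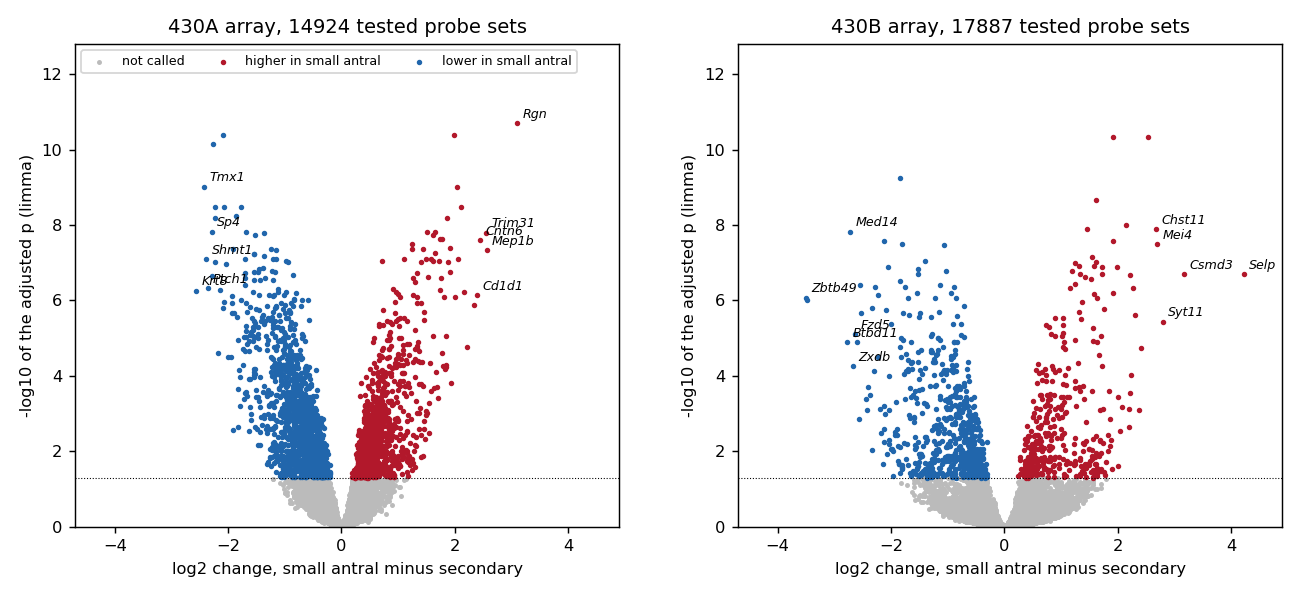
Log2 change from secondary to small antral oocytes (x axis) against the negative log10 of the limma adjusted p (y axis) for each tested probe set of the 430A (left) and 430B (right) arrays, with the dotted line at an adjusted p of 0.05. On 430A 1078 probe sets lie above the line on the side of higher signal in small antral oocytes and 1674 on the other side; Rgn and Selp lie farthest to the right on their arrays.

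The largest rise on 430A was that of Rgn, which encodes the calcium-binding protein regucalcin. It gave signals of 252.8, 274.0, 223.4 and 266.2 in the 4 secondary samples and 2491.0, 2183.0, 2251.8 and 2803.8 in the 4 small antral samples. The log2 change was 3.10 ± 0.14 (SE; limma, adjusted p = 2e-11). Every small antral value lay far above every secondary value. In primary oocytes the mean was 142.9 ± 39.7 (SD, n = 4), and in large antral oocytes it was 2101.4 ± 186.9, a step from small antral that did not pass the test (-0.21 ± 0.14, limma adjusted p = 0.36).

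Cmtm8, a membrane protein of the MARVEL domain family, rose from a higher base with little scatter. Its secondary signals were 354.1, 347.5, 336.7 and 309.5 and its small antral signals 1307.5, 1438.5, 1406.3 and 1602.0, a log2 change of 1.99 ± 0.10 (limma, adjusted p = 4.1e-11). The rise continued one from the preceding stage, where the mean was 136.8, and the large antral mean of 1335.1 did not pass the test against the small antral one (-0.10, adjusted p = 0.55). Man1a, a Golgi mannosidase that trims the sugar chains of secreted proteins, gave 134.7, 130.7, 134.2 and 109.5 in secondary and 650.3, 617.2, 553.4 and 662.4 in small antral oocytes. Both of its tested probe sets rose, by 2.04 ± 0.12 and 1.77 ± 0.24.

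Several genes went from a signal near background to a clear one. Trim31, a RING-finger ubiquitin ligase, gave 78.1, 59.2, 47.3 and 100.5 in secondary oocytes and 551.1, 629.4, 539.9 and 533.8 in small antral oocytes (2.55 ± 0.19, limma adjusted p = 1.6e-08). Cntn6, a contactin of the immunoglobulin superfamily of adhesion molecules, gave 96.3, 61.9, 76.0 and 49.9 and then 464.4, 466.0, 562.4 and 603.5 (2.44 ± 0.19). Cd1d1, which presents lipid antigens, gave 52.9, 17.9, 49.9 and 22.2 and then 250.7, 332.7, 350.6 and 324.9 (2.39 ± 0.24), and its other probe set rose by 2.22 ± 0.29. That no array of one stage reached the range of the other was a condition for naming these genes. Trim31, Cntn6 and Cd1d1 had large antral means of 531.0, 544.0 and 205.8, and none of these steps passed the test.

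Mep1b, the beta subunit of the metalloprotease meprin, had secondary signals of 28.8, 26.8, 18.5 and 20.8 and small antral signals of 260.3, 197.1, 417.0 and 354.3 (2.56 ± 0.21, limma adjusted p = 4.7e-08). Bcl2l15, a member of the Bcl2 family of cell death regulators, gave 15.9, 4.3, 44.0 and 4.6 and then 255.7, 189.2, 198.9 and 179.1 (2.33 ± 0.25). Crybg1, which carries crystallin-type domains, gave 19.9, 16.9, 19.5 and 23.1 and then 160.1, 297.7, 230.0 and 146.4 (2.17 ± 0.22). Crybg1 went on rising to 433.2 in large antral oocytes (0.99, limma adjusted p = 0.0054). Dnajc5b, a co-chaperone with a J domain, did the opposite after its rise: from 179.7, 74.8, 160.9 and 118.1 it went to 544.8, 631.4, 638.0 and 733.4 (2.06 ± 0.17) and then fell to a large antral mean of 395.3 (-0.65, adjusted p = 0.019).

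Atg10, an enzyme of the conjugation step that builds the autophagosome, gave 18.9, 31.4, 18.5 and 52.6 in secondary and 209.4, 233.2, 162.2 and 259.5 in small antral oocytes (2.01 ± 0.21, limma adjusted p = 8e-07). Nmu, the precursor of the neuropeptide neuromedin U, was the most scattered of the 12 in small antral oocytes. It gave 23.5, 26.8, 23.5 and 38.7 and then 206.7, 291.7, 109.7 and 222.8 (1.94 ± 0.31, adjusted p = 0.00015). For genes with secondary signals this low the size of the log2 change depends on the added constant. With 100 in place of 32 the changes were 1.69 for Mep1b, 1.39 for Bcl2l15, 1.34 for Crybg1, 1.28 for Atg10 and 1.23 for Nmu, all still called.

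Among the falls on 430A, Krt8, the epithelial type II keratin 8, had the largest. It gave 290.5, 285.9, 421.3 and 375.3 in secondary and 28.1, 15.2, 18.8 and 72.4 in small antral oocytes, a log2 change of -2.57 ± 0.25 (limma, adjusted p = 5.5e-07). Its other probe sets fell by 2.00 and 1.51 on the log2 scale. Krt8 is also a marker of the ovarian surface epithelium, whose summed 430A signal, over 3 tested genes that include Krt8 itself, was 848.0 to 1150.5 in secondary and 451.2 to 690.9 in small antral samples. Without Krt8 the sum holds Upk3b, with means of 223.7 and 197.6, and Lgr5, with 150.9 and 165.7. The other defining markers of that epithelium, Krt7, Krt18, Krt19, Msln and Wt1, had means of 7.5 to 50.9 in both stages and were not tested, and Upk3b, Lgr5 and Muc16 did not pass the test.

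Tmx1, a thioredoxin-like enzyme of the endoplasmic reticulum membrane, stood at 1428.5, 1571.8, 1189.3 and 1710.4 in secondary oocytes and at 280.8, 188.5, 218.1 and 318.6 in small antral oocytes (-2.42 ± 0.14, limma adjusted p = 9.7e-10). It had already fallen from a primary mean of 1967.2 (-0.42, adjusted p = 0.045), and it fell again to 127.8 in large antral oocytes (-0.81, adjusted p = 0.0013). Scamp1, a carrier protein of post-Golgi vesicles, fell along the same course. Its 430A probe set gave 2181.9, 2638.0, 2659.6 and 2095.3 and then 396.3, 504.1, 529.3 and 462.7 (-2.26 ± 0.12, adjusted p = 7.3e-11), between a primary mean of 4914.9 and a large antral mean of 285.4. A 430B probe set of Scamp1 rose by 0.39 ± 0.10 (adjusted p = 0.023), so the direction for the gene differs by probe set.

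Shmt1, the cytosolic serine hydroxymethyltransferase of one-carbon metabolism, held its level from primary to secondary oocytes and then dropped. Its signals were 411.0, 401.7, 314.9 and 320.8 in secondary and 64.5, 42, 28.7 and 40.7 in small antral oocytes (-2.39 ± 0.20, limma adjusted p = 8.1e-08), beside means of 306.1 in primary and 43.0 in large antral oocytes. All 3 of its tested probe sets fell. Riox1, a nucleolar oxygenase, had nearly the same shape, with 381.9, 332.6, 334.1 and 363.4 and then 48.0, 28.8, 58.5 and 69.1 (-2.24 ± 0.19). Sp4, a zinc-finger transcription factor of the Sp family, gave 291.5, 279.0, 289.2 and 304.6 and then 35.1, 41.7, 40.3 and 21.2 (-2.29 ± 0.17). The secondary and small antral ranges of all 3 genes were several-fold apart, where large changes and groups apart were the rule for naming them.

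Surface receptors and adhesion molecules were also among the falls. Pvr, the poliovirus receptor of the nectin-like family, gave 323.0, 354.1, 248.8 and 314.2 in secondary and 26.8, 44.0, 56.2 and 27.1 in small antral oocytes (-2.29 ± 0.21), and its 3 other tested probe sets fell as well, by 0.63 to 2.07 on the log2 scale. Ptch1, the receptor for Hedgehog ligands, gave 228.3, 373.9, 476.9 and 306.6 and then 64.8, 40.4, 26.4 and 32.7 on 430A (-2.36 ± 0.23, limma adjusted p = 4.7e-07). Its 430B probe set went the other way, from 209.5, 114.2, 38.0 and 67.9 to 457.6, 341.7, 194.7 and 417.3 (1.56 ± 0.46, adjusted p = 0.0499), with ranges that overlapped. Twsg1, a secreted modulator of BMP signals, gave 371.9, 473.5, 518.8 and 357.8 and then 30.1, 137.9, 125.6 and 29.7 (-2.18 ± 0.30), while 2 other probe sets of the gene showed log2 changes of 0.09 and 0.04 that did not pass the test.

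Slc26a2, a sulfate transporter, gave 680.7, 801.5, 873.1 and 734.8 in secondary and 172.7, 170.0, 138.1 and 89.2 in small antral oocytes (-2.23 ± 0.15, limma adjusted p = 6.5e-09) with a large antral mean of 21.1. Of its other probe sets, one on 430B fell by 1.49 on the log2 scale and one gave -0.27 (adjusted p = 0.40). Maged1, a MAGE family gene on the X chromosome, was in the last part of a decline that began earlier. Its primary mean was 1426.3, its secondary signals were 116.8, 192.3, 231.7 and 205.4 and its small antral signals 23.8, 14.6, 10.9 and 15.9 (-2.15 ± 0.21, or -1.28 with 100 added). Hspa1b, the inducible heat shock protein of the Hsp70 class, dipped at the small antral stage: 1486.7, 1876.9, 1533.7 and 1758.4 gave way to 341.7, 374.8, 224.0 and 398.6 (-2.23 ± 0.15, adjusted p = 3.3e-09), and the large antral mean was 917.2, higher than small antral by 1.39 on the log2 scale (adjusted p = 7.9e-06). Its other probe sets fell by 1.67 and 0.94 on the log2 scale. Hspa1b has a near-identical neighbour, Hspa1a, so its probe sets may read both.

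**Figure D2:**
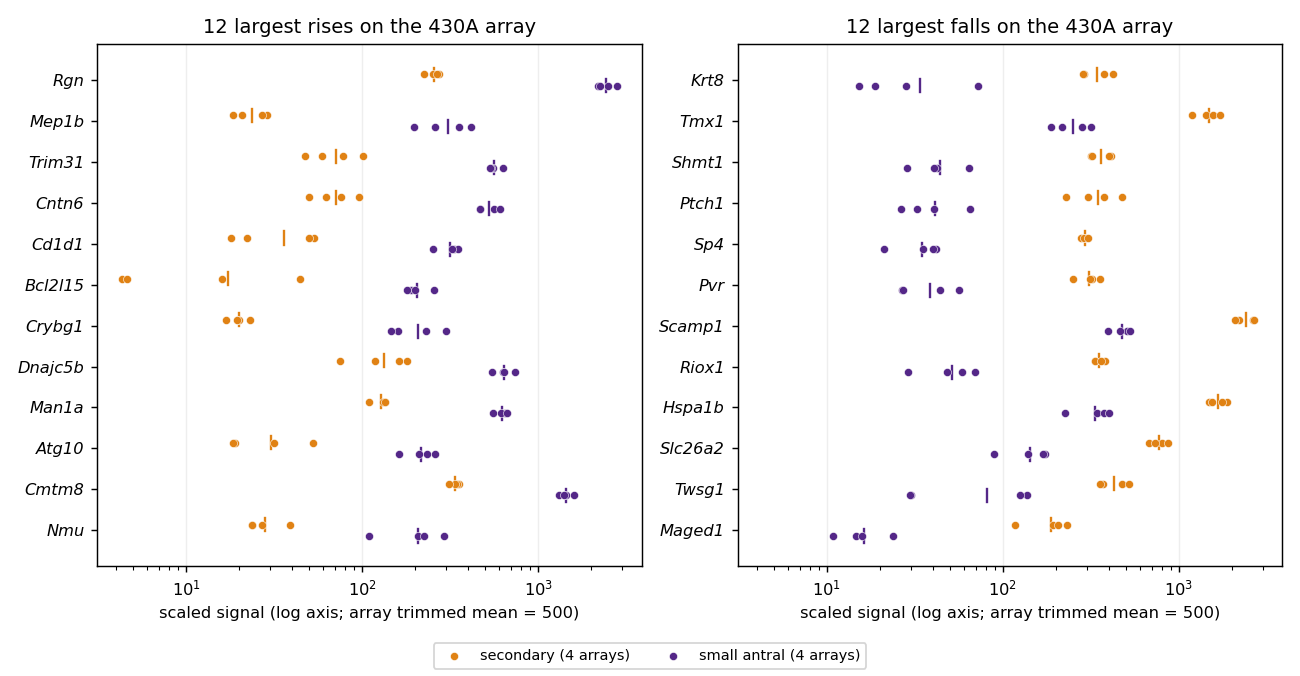
Scaled signal on a log axis in each of the 4 secondary (orange) and 4 small antral (purple) samples for the 12 largest rises (left) and the 12 largest falls (right) on the 430A array, 1 point per array, with a short bar at the mean. The groups of 4 do not overlap for any of the 24 genes, which the rule for naming them required; Rgn spans 223.4 to 274.0 in secondary and 2183.0 to 2803.8 in small antral oocytes.

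**Figure D3:**
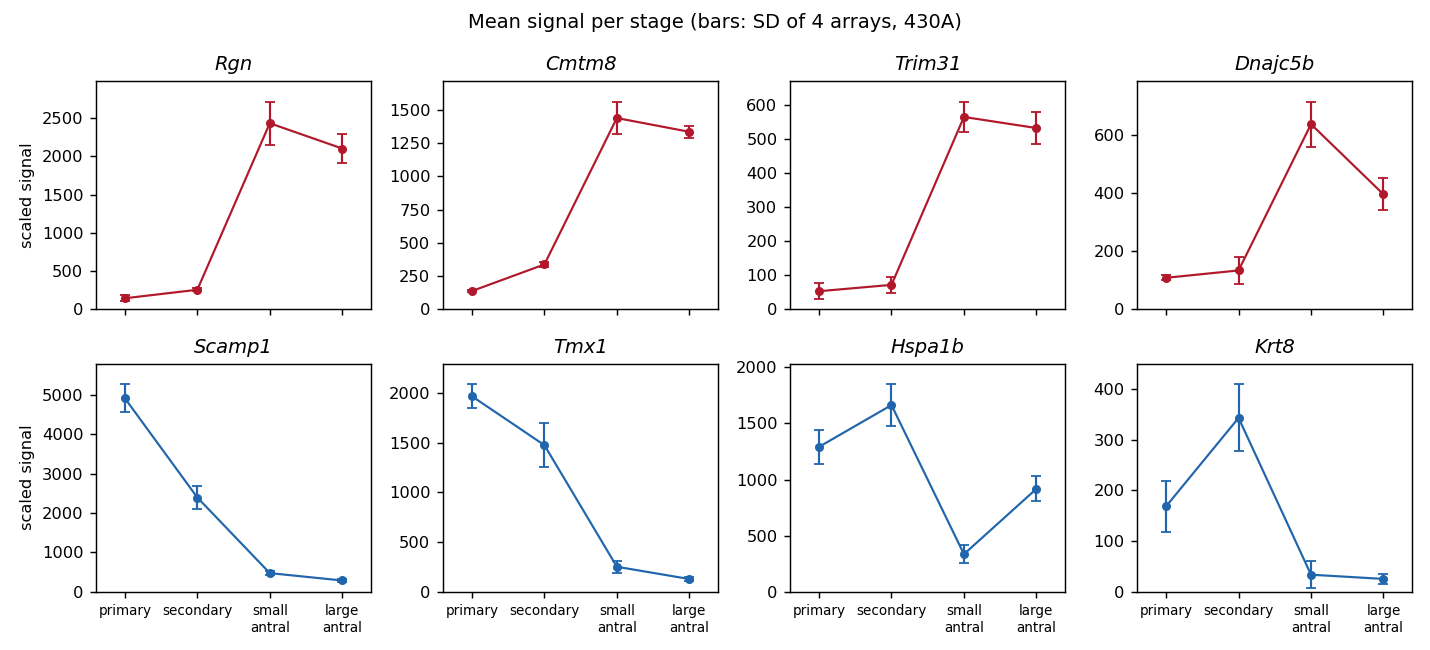
Mean scaled signal (y axis, from 0) at the 4 follicle stages (x axis) for 4 genes that rose and 4 that fell from secondary to small antral oocytes on 430A, with bars showing the SD of 4 arrays. Rgn, Cmtm8 and Trim31 stay high in large antral oocytes, Dnajc5b falls back to 395.3, Scamp1 and Tmx1 decline from the primary stage on, Krt8 peaks in secondary oocytes, and Hspa1b is lower in small antral than in large antral oocytes.

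On 430B, where the spread was wider, the largest changes were in part from near background as well. Selp, the adhesion receptor P-selectin, gave 5.2, 93.8, 20.7 and 87.9 in secondary oocytes and 1484.8, 930.6, 1895.6 and 1244.0 in small antral oocytes (4.22 ± 0.37, limma adjusted p = 2e-07). A 430A probe set of Selp rose by 1.91 ± 0.17. Mei4, which is required to make the DNA breaks that start meiotic recombination, gave 406.9, 366.0, 273.6 and 364.5 and then 2659.7, 2735.4, 2242.9 and 2190.3 (2.70 ± 0.20, adjusted p = 3.2e-08), with a large antral mean of 3393.2. Its rise comes long after that recombination has ended in the fetal oocyte.

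Pnma5, of the paraneoplastic Ma antigen family on the X chromosome, changed with the smallest error of the 6 rises named on 430B. It went from 1451.6, 1245.1, 1331.5 and 1248.7 to 7396.7, 7118.2, 7900.7 and 8591.1 (2.53 ± 0.12, limma adjusted p = 4.5e-11). Csmd3, a membrane protein with CUB and sushi domains, gave 192.6, 291.9, 237.7 and 122.4 and then 1646.2, 2014.2, 2350.3 and 2405.8 (3.17 ± 0.28). Chst11, a chondroitin sulfotransferase, gave 421.1, 508.2, 313.4 and 384.2 and then 2701.7, 2179.5, 3587.5 and 2623.5 (2.67 ± 0.19). Syt11, a synaptotagmin, gave 38.0, 60.4, 58.4 and 94.1 and then 391.2, 861.1, 682.8 and 593.9 (2.79 ± 0.31). One further probe set each of Csmd3 and Syt11 also rose, by 2.27 and 1.3, whereas the 430A probe set of Chst11 (0.42), the third of Csmd3 (0.52) and 3 more of Syt11 (0.08 to 0.86) did not pass the test.

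Regulators of transcription were among the falls named on 430B. Zbtb49, a zinc-finger factor with a BTB domain, gave 1437.1, 1095.3, 518.2 and 1161.4 in secondary and 74.7, 31.7, 63.5 and 68.3 in small antral oocytes (-3.51 ± 0.35, limma adjusted p = 8.5e-07). Zxdb, a zinc-finger gene on the X chromosome, gave 590.5, 471.6, 575.9 and 708.7 and then 103.9, 68.9, 107.7 and 11.4 (-2.68 ± 0.37). Med14, a subunit of the Mediator complex that links transcription factors to RNA polymerase II, gave 1804.4, 2055.8, 2454.6 and 2216.0 and then 379.1, 315.1, 183.7 and 332.8 (-2.72 ± 0.19). A 430A probe set of Med14 fell by 0.59 on the log2 scale, and its 3 other 430B probe sets had log2 changes of -0.06 to 0.83, none called.

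Fzd5, a receptor for Wnt ligands, gave 1723.3, 2001.9, 2074.6 and 1614.2 and then 288.0, 252.1, 322.4 and 233.1 (-2.63 ± 0.31, limma adjusted p = 7.9e-06), between a primary mean of 3953.8 and a large antral mean of 122.6. Gigyf2, which takes part in blocking the translation of capped messages, gave 468.7, 362.9, 431.2 and 337.6 and then 51.6, 19.3, 39.0 and 49.3 (-2.60 ± 0.32). Btbd11, another gene with a BTB domain, gave 547.4, 565.1, 526.2 and 621.8 and then 45.4, 50.3, 97.4 and 36.2 (-2.78 ± 0.34). Groups apart were required of all 3 by the rule for naming them. Other probe sets of Gigyf2 (log2 changes of -0.74 to 0.35), Btbd11 (-0.31) and Zbtb49 (-0.47) did not pass the test, so these falls rest on single probe sets.

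Promoter sequences were taken from RefSeq (mouse build GRCm38.p6) to set the genes that rose beside those that fell. They are shown for the first 3 rises and the first 3 falls on 430A that had an entry in the promoter table, because the 2 groups differed in their content of the CpG dinucleotide, the site of DNA methylation. Each line gives the 250 bases before the annotated gene start, 5′ to 3′ on the strand of the gene, with CpG dinucleotides in capitals. Of the rises, Trim31 lies at chr17:36897880-36898129 on the plus strand, Cntn6 at chr6:104492794-104493043 on the plus strand and Bcl2l15 at chr3:103832446-103832695 on the plus strand. Of the falls, Krt8 lies at chr15:102004343-102004592 on the minus strand, Tmx1 at chr12:70452904-70453153 on the plus strand and Shmt1 at chr11:60811266-60811515 on the minus strand.
Trim31: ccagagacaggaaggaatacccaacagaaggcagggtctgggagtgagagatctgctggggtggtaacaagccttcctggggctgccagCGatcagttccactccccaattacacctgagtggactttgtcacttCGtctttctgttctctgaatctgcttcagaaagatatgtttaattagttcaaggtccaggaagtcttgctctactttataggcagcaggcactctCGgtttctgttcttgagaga
Cntn6: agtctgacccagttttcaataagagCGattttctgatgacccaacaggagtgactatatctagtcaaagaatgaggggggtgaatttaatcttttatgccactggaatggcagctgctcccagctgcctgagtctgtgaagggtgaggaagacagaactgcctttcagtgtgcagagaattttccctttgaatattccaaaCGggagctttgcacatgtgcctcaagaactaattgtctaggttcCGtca
Bcl2l15: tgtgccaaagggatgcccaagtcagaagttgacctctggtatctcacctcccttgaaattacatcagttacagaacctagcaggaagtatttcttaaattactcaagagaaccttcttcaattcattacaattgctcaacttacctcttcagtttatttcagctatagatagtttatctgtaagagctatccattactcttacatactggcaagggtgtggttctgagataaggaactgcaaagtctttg
Krt8: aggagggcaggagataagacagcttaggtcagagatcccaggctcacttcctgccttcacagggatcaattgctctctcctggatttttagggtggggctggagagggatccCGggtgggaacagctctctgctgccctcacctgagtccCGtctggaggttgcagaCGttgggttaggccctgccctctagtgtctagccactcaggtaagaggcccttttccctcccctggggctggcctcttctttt
Tmx1: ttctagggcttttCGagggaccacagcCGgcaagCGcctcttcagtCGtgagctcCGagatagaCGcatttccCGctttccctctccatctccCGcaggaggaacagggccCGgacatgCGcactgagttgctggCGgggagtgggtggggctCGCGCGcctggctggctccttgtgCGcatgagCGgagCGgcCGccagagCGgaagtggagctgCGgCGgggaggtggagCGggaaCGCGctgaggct
Shmt1: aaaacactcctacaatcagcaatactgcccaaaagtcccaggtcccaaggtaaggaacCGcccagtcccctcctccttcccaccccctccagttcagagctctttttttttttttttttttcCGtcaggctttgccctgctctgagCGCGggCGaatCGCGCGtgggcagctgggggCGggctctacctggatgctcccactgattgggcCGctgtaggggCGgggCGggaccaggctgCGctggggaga

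These windows held 3, 3 and 0 CpG dinucleotides for Trim31, Cntn6 and Bcl2l15, and 3, 24 and 13 for Krt8, Tmx1 and Shmt1, so that Krt8 was as poor in CpG as the rises. Over 300 bases (250 before and 50 after the gene start), 151 genes that rose at least 2-fold had a median of 9 CpG, 247 that fell at least 2-fold had 22, and all 11879 tested genes with an entry had 19. Fewer than 5 CpG were present in 29.8% of those rises, 6.48% of those falls and 14.4% of all tested genes. The median GC content was 54.7%, 62.3% and 59.7% in the same order. Among all called genes the medians were closer, at 18 for 684 rises and 23 for 1118 falls. These shares are descriptions over genes, which are not replicates, and no test was made of them.

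A set of 3 short motifs was searched on both strands of the same 300 bases, and matches of different motifs may overlap. The E-box CANNTG, the core bound by basic helix-loop-helix factors such as Figla and Sohlh1, was in 69.5% of promoters of genes that rose at least 2-fold, 64.8% of those that fell at least 2-fold and 65.5% of all tested genes. TAATTG, a core of homeobox factors such as Nobox and Lhx8, was in 11.3%, 4.05% and 5.30%. The TATA box TATAAA was in 11.3%, 8.91% and 8.62%. Over all promoters of the table the shares were 72.1%, 8.15% and 14.2%. A match describes the letters of the window and not a binding site.

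**Figure D4:**
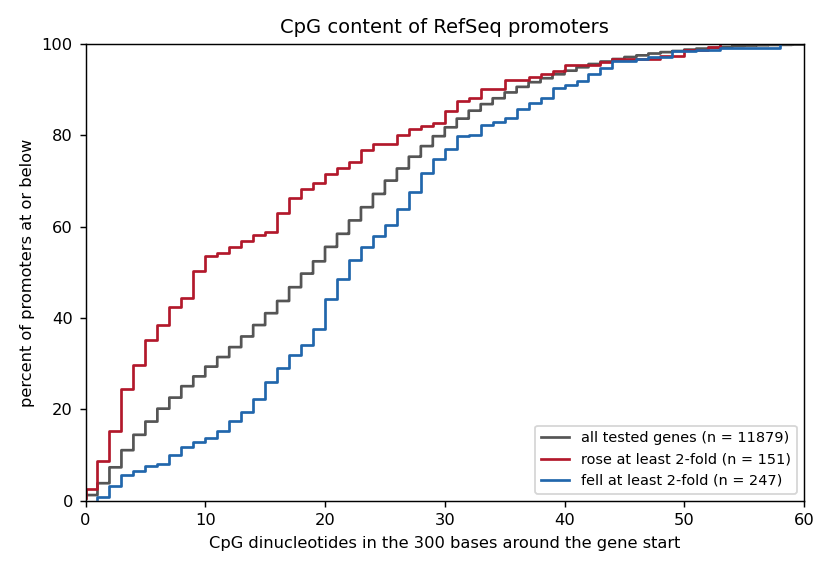
Cumulative percent of promoters (y axis) at or below a number of CpG dinucleotides in the 300 bases around the gene start (x axis) for all tested genes, genes that rose at least 2-fold and genes that fell at least 2-fold. The rises have a median of 9 CpG, all tested genes 19 and the falls 22.

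The gene groups are described by their members' roles, each against the background of 5.75% rises and 9.27% falls among all tested genes. Shares near those values say nothing particular about a group, and no test compared a group with other genes. That background pools both arrays and all signal levels. On 430A alone 655 of 9193 genes rose and 1095 fell. There 15.7% of genes with signals of 200 to 500 and 15.9% of those with 500 to 2000 fell, against 6.55% under 200 and 9.35% from 2000 to 10000. The receptor, egg surface, nucleolar and antioxidant lists had median secondary signals of 640.4, 464.5, 758.6 and 296.4. Those of the prophase, piRNA, chaperone and nuclear pore lists were 434.8, 1029.7, 907.2 and 1267.0. The one-carbon, tRNA synthetase, glycolysis, connexin and zinc, and oocyte regulator lists had 393.3, 417.9, 515.1, 276.5 and 1231.3. At such signals on 430A the nearer share of falls is 15.7% or 15.9% and not 9.27%. Falls near 15.9% in such lists are therefore not particular to them. Each gene is counted by 1 probe set. Of the 159 called genes named in the text, 85 had other tested probe sets; for 23 of these all the others were called in the same direction, and for 44 none was. Of 10 tested genes of the zona pellucida and of secreted factors, 1 rose and 1 fell. Zp1, which cross-links zona filaments, fell from 16197.8, 14072.8, 14542.8 and 13576.8 to 9379.8, 11868.1, 11959.8 and 11647.5 (-0.38 ± 0.09, limma adjusted p = 0.0035). Zp2 and Zp3, the main filament proteins, and the growth factor Gdf9 had log2 changes of -0.11 ± 0.06, -0.08 ± 0.08 and -0.10 ± 0.07, none past the test. The other growth factor of the oocyte, Bmp15, gave 0.33 ± 0.15 (adjusted p = 0.13), with overlapping arrays of 1595.2 to 2466.5 and 2189.0 to 2913.5. Oosp2, an oocyte-secreted protein, rose by 0.28 ± 0.07 on 430B, a call that was lost in 6 of the alternatives tried.

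Receptors and transducers of follicle signals had 1 of 31 up and 5 down (16.1%). Tgfbr1, a type I receptor of the TGF-beta family, went from 1051.3, 1051.3, 1305.3 and 1205.1 to 592.4, 684.7, 633.7 and 598.2 (-0.84 ± 0.12, limma adjusted p = 2.8e-05). Acvr1b, the activin type I receptor, fell by 0.38 on the log2 scale (adjusted p = 0.0073). Rptor, the mTORC1 scaffold, fell by 0.67 on 430B, and had a log2 change of -0.54 (adjusted p = 0.16) without the 3 small antral samples with the secondary protocol text. Kit, the receptor for the granulosa ligand that drives growth, gave 2230.3, 3048.6, 3955.0 and 2625.5 and then 1862.5, 2821.7, 2600.7 and 1939.5, which overlap (-0.35 ± 0.15, adjusted p = 0.11). It passed the test when either secondary replicate 1 (adjusted p = 0.029) or small antral replicate 2 (adjusted p = 0.047) was left out.

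The regulators that switch on oocyte genes early in folliculogenesis were split. Of 19 tested, 1 rose and 4 fell (21.1%). Sohlh1, a helix-loop-helix factor of early follicles, gave 1231.1, 1225.0, 1464.5 and 1004.5 in secondary and 646.4, 492.9, 409.4 and 551.5 in small antral oocytes (-1.19 ± 0.15, limma adjusted p = 2.7e-05), after a primary mean of 3837.8. Figla, the factor that activates the zona genes, gave 1361.6, 1355.4, 1352.6 and 1309.6 and then 962.5, 808.1, 632.1 and 797.9 (-0.74 ± 0.12, adjusted p = 0.00012), after a primary mean of 2541.6. Both had declined before this interval too. Esrrb and Foxj2 fell by 0.74 and 0.69 on the log2 scale, although 2 other probe sets of Esrrb gave -0.06 and -0.23 and were not called. Prdm1, a zinc-finger repressor known from germ cell specification, rose from 247.2, 212.1, 291.8 and 257.3 to 502.8, 435.3, 489.0 and 416.5 (0.80 ± 0.13, adjusted p = 0.00016). The homeobox factors Nobox and Lhx8 stood at log2 changes of -0.09 ± 0.11 and -0.03 ± 0.09, not past the test.

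Of 21 genes of DNA methylation and its readers 4 rose (19.0%) and 2 fell (9.52%), where 1 of the rises, Nsd1, differed by probe set. Dnmt3l, the cofactor that oocytes need to set maternal imprints, gave 567.2, 425.2, 531.7 and 498.0 in secondary and 721.1, 767.0, 971.1 and 929.1 in small antral oocytes (0.71 ± 0.12, limma adjusted p = 0.00028). Dnmt3b, a de novo methyltransferase, gave 607.2, 723.7, 792.8 and 592.3 and then 832.5, 1052.5, 1090.4 and 847.8 (0.47 ± 0.12, adjusted p = 0.0085). Dnmt1, the maintenance enzyme, gave 14072.1, 18045.3, 17120.4 and 14186.6 and then 10234.5, 13452.4, 14254.2 and 11320.6 (-0.37 ± 0.10, adjusted p = 0.0097), with 1 small antral value inside the secondary range and no call when the primordial arrays were added (adjusted p = 0.14). The methyl-CpG protein Mbd3 fell by 0.69. Nsd1, a histone methyltransferase, rose by 0.82 on one 430B probe set and fell by 0.76 on another, and the rise was not called without the 3 samples with the secondary protocol text (0.61, adjusted p = 0.35).

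Enzymes of histone modification were near background in both directions, with 5 of 57 up and 7 down. Ezh2, the methyltransferase of Polycomb complex 2, rose from 4888.7, 6053.3, 7313.2 and 4781.3 to 7606.2, 9214.1, 8652.0 and 8062.7 (0.56 ± 0.14, limma adjusted p = 0.0067). Setd1b, a histone H3 lysine methyltransferase, fell from 3715.7, 4733.9, 4847.1 and 3884.0 to 1991.9, 2495.0, 2561.9 and 1483.0 on 430B (-1.02 ± 0.14, adjusted p = 6.8e-05), and its other probe set gave -0.21 (adjusted p = 0.54). The deacetylase Hdac11 fell by 0.98, and Ehmt2, the G9a methyltransferase, by 1.42 on the log2 scale (-0.85 with 100 added). The secondary and small antral arrays of Ezh2 and Setd1b did not overlap.

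Of 25 tested genes of meiotic prophase 1 rose, which was Mei4, 5 fell (20.0%) and the rest did not pass the test. Psmc3ip, a partner of the recombinases, gave 2112.8, 1660.5, 1407.1 and 1799.4 and then 1059.4, 855.4, 933.4 and 1124.1 (-0.79 ± 0.12, limma adjusted p = 6.3e-05). Sycp3, a lateral element of the synaptonemal complex, gave 458.3, 298.1, 588.2 and 533.1 and then 289.7, 255.3, 267.6 and 324.2 (-0.63 ± 0.16, adjusted p = 0.0097), ranges that overlap slightly, after a primary mean of 1167.4. Trip13, which remodels the synaptonemal axis, fell by 0.99, while its other probe sets gave -0.33 and 0.71 and were not called. The recombinase Dmc1 had a log2 change of 0.62 ± 0.23 at low signals (adjusted p = 0.067), and passed the test when secondary replicate 3 (adjusted p = 0.029) or small antral replicate 2 (adjusted p = 0.037) was left out.

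The piRNA and small RNA pathway, which silences transposons in germ cells, had 2 of 26 genes up and 6 down (23.1%). Piwil2, a Piwi protein, fell from 395.1, 352.1, 458.0 and 320.8 to 182.3, 239.5, 211.8 and 207.9 (-0.76 ± 0.13, limma adjusted p = 0.00019), a step in a decline from 886.8 in primary to 96.2 in large antral oocytes. Tdrd9, a helicase with a Tudor domain, fell by 0.90 on 430B (adjusted p = 3.2e-05). Gpat2 fell by 1.45 on 430B, a call lost without the 3 samples with the secondary protocol text (-0.98, adjusted p = 0.18). Asz1, another component of the germ granule pathway, rose by 0.34 ± 0.09 (adjusted p = 0.013).

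Among 43 genes of messenger storage, polyadenylation and deadenylation 5 rose (11.6%) and 7 fell (16.3%). Patl2, an oocyte protein that binds stored messages, dropped from 23652.9, 20703.9, 24124.6 and 21872.3 to 13223.9, 11376.0, 12043.3 and 12965.2 on 430B (-0.86 ± 0.09, limma adjusted p = 8.8e-07). Ddx4, the germ-cell helicase Vasa, gave 1701.8, 1894.8, 2050.2 and 2038.5 and then 975.1, 865.6, 792.7 and 1086.7 (-1.03 ± 0.15, adjusted p = 6.3e-05). Zfp36l2, which directs messages to decay, fell by 0.89. In the other direction, Cnot7, a deadenylase subunit, went from 191.6, 221.0, 247.5 and 289.0 to 552.0, 505.1, 535.3 and 659.4 (1.15 ± 0.15, adjusted p = 1.4e-05), and the poly(A) polymerase Papolg rose by 0.66 ± 0.10. Zar1, a maternal factor of message storage, had a log2 change of -0.17 ± 0.07 on 430B (adjusted p = 0.23) and was not called. Its arrays of the 2 stages did not overlap. That was so for 1796 of the 17887 probe sets tested on 430B, of which 936 were called.

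The subcortical maternal complex and other maternal-effect genes had 2 of 26 members up and 3 down (11.5%). Nlrp5, the core of the complex, did not pass the test (-0.11 ± 0.07, limma adjusted p = 0.34), with 17554.0 to 21664.1 in secondary and 16647.6 to 19135.3 in small antral oocytes. Nlrp4c fell by 0.53 (adjusted p = 0.0028). On 430B Khdc3 fell by 0.73, Padi6 fell by 0.31 and Nlrp9a rose by 0.55. With the 1 remaining small antral array, the log2 changes were -0.53 for Khdc3 (adjusted p = 0.091), -0.33 for Padi6 (adjusted p = 0.14) and 0.29 for Nlrp9a (adjusted p = 0.56), none called. Padi6 and Nlrp9a also lost their calls at nearly the same log2 changes with the primordial arrays added, with median scaling and without the mean-variance trend. The linker histone H1f8 stood at -0.10 ± 0.11 and was not called.

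Meiotic arrest is kept by cyclic AMP, and the genes around it were near background, with 2 of 29 up and 3 down. The receptor Gpr3 (-0.11 ± 0.14), the phosphodiesterase Pde3a (-0.11 ± 0.30) and the inhibitory kinase Wee2 (0.02 ± 0.09) did not pass the test. Adcy6, an adenylyl cyclase, fell by 0.83 (limma adjusted p = 0.0019), and Akap1, an anchor of protein kinase A, rose by 0.42 ± 0.10. For the engine of the divisions, 3 of 38 genes of the maturation promoting factor, the anaphase promoting complex and the Mos pathway rose and 5 fell (13.2%). Ccnb3, a cyclin that acts at anaphase of the first meiotic division, gave 170.1, 121.4, 215.1 and 149.1 and then 501.4, 654.9, 534.3 and 558.6 (1.62 ± 0.14, adjusted p = 9.1e-08), after a primary mean of 75.2 and before a large antral mean of 750.5. Cdc25a, a phosphatase that activates cyclin-dependent kinases, rose by 0.49 ± 0.12.

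Ube2c, the conjugating enzyme of the anaphase promoting complex, went the other way, from 1831.2, 1712.1, 1599.5 and 1561.3 to 768.7, 748.8, 644.0 and 765.2 (-1.16 ± 0.09, limma adjusted p = 4.7e-08), and its large antral mean was 756.7. Cdk2 fell by 0.70, and the kinase Cdk1 stood at -0.17 ± 0.08, not past the test. Mos, the kinase of cytostatic arrest, fell by 0.28 ± 0.08 (adjusted p = 0.021) with overlapping arrays, and lost its call in 8 of the alternatives. The spindle checkpoint and cohesin group had 5 of 40 risen (12.5%) and 2 fallen. Ttk, the checkpoint kinase Mps1, rose by 0.54 ± 0.09 and Sgo1, a protector of cohesin, by 0.50 ± 0.11, while the kinetochore subunit Ndc80 fell by 0.59.

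Of 22 genes of egg surface, fertilization and calcium signalling 2 rose (9.09%) and 4 fell (18.2%). Cd9, the tetraspanin that sperm fusion requires, gave 2817.9, 2376.6, 2131.2 and 2111.9 and then 1517.9, 1011.8, 871.3 and 1421.9 (-0.98 ± 0.15, limma adjusted p = 0.00011), and went on to 742.1 in large antral oocytes. Its partner in fertilization, the sperm receptor Izumo1r, stood at 0.20 ± 0.15 and did not pass the test. The cortical granule protease Astl fell by 0.37 ± 0.09 (adjusted p = 0.011), and kept a change at least as large where its call was lost: -0.46 without the samples with the secondary protocol text (adjusted p = 0.095), -0.38 with median scaling (adjusted p = 0.13) and -0.37 without the mean-variance trend (adjusted p = 0.14). The calcium channel Itpr3 fell by 0.46.

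Spire1 and Fmn2, a pair of actin nucleators that act together in positioning the spindle, both rose. Spire1 gave 3449.3, 3042.8, 3084.1 and 3493.3 and then 7867.3, 7462.3, 8738.9 and 8676.3 on 430B (1.32 ± 0.11, limma adjusted p = 1.2e-07), and held 7963.5 in large antral oocytes. Another Spire1 probe set rose by 0.42 and 3 did not pass the test (-0.73 to 0.04). Fmn2, a formin, rose by 0.50 ± 0.12 (adjusted p = 0.0043). In the whole list of actin and kinesin genes 5 of 56 rose and 4 fell, among them the motor Kif5c (0.78 ± 0.18) and the Arp2/3 subunit Arpc4, which fell by 0.91. No connexin, zinc transporter or metallothionein rose of the 33 tested, and 6 fell (18.2%), led by Gjc1, a connexin (-1.18 ± 0.18), and Slc30a2, a zinc exporter (-1.55 ± 0.23). Gja4, which forms the gap junctions of the oocyte itself, did not pass the test (-0.05 ± 0.09).

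Genes for folding and making proteins follow. Chaperones had 18 falls and 6 rises among 89 tested (20.2% fallen), with a median log2 change of -0.19 against -0.01 over all tested genes. Besides Tmx1 and Hspa1b, the co-chaperone Dnajb1 fell by 0.57 ± 0.07 and Tmx4 by 1.55 ± 0.15 on 430B, from 1960.7, 2273.1, 2404.2 and 2140.8 to 774.4, 557.6, 655.2 and 966.3 (limma, adjusted p = 6.5e-07). Other probe sets of Tmx4 gave -0.59 and -0.21 and were not called. Tmx2 and Tmx3, picked out after their values were seen, fell by 1.72 and 2.23, so that the 4 Tmx genes of the list all fell at the probe set counted for each. Dnajb4, another co-chaperone, rose by 0.74 ± 0.08. Bag4, a cofactor of Hsp70, rose by 0.55 ± 0.07 on 430A and fell by 1.49 on a 430B probe set.

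Nuclear pore and transport genes had 13 falls and 1 rise among 51, the highest share of falls (25.5%). Ran, the GTPase that gives nuclear transport its direction, went from 677.3, 842.2, 974.9 and 876.4 to 336.7, 202.8, 103.8 and 200 (-1.93 ± 0.20, limma adjusted p = 1.2e-06), in a decline from a primary mean of 2530.8. Its 4 other probe sets, which gave higher signals, had smaller changes: -0.58 and -0.41, both called, and -0.28 and -0.07, not called. The importins Kpna4 and Ipo7 fell by 1.36 (-0.82 with 100 added) and 0.92, and the pore subunit Nup133 fell by 0.77. The exportin Xpo4 was the single rise, at 0.49 ± 0.13. Ran has processed copies in the genome, which its probe set may also read.

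One-carbon metabolism, which supplies methyl groups and purines, had 7 falls and no rise among 30 (23.3%). Gcsh, of the mitochondrial glycine cleavage system, gave 815.0, 666.1, 786.2 and 637.9 and then 295.7, 420.4, 316.5 and 339.8 (-1.02 ± 0.14, limma adjusted p = 2.4e-05). The purine enzymes Adsl and Ppat fell too, with log2 changes of -0.89 and -1.16 (-0.73 for Ppat with 100 added). Aminoacyl tRNA synthetases had 4 falls and no rise among 17 (23.5%), including the mitochondrial enzymes Tars2 (-0.82 ± 0.17) and Nars2 (-1.46 ± 0.26), the latter not called without the 3 samples with the secondary protocol text (-1.07, adjusted p = 0.20).

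Nucleolar genes of ribosome assembly had 1 rise and 8 falls among 59 (13.6%). Nob1, the nuclease that matures the small ribosomal subunit, gave 2889.1, 2407.0, 2777.7 and 2938.4 and then 1066.8, 1135.2, 949.7 and 1247.1 on 430B (-1.3 ± 0.14, limma adjusted p = 2.7e-06). Ubtf, the RNA polymerase I factor, fell by 0.80 ± 0.10. Rrs1 and Nop53, both assembly factors, fell by 1.80 and 1.82 (-1.09 and -1.19 with 100 added). Of the ribosomal proteins themselves, 2 of 45 cytoplasmic ones fell and none rose, namely Rps4l (-1.2 ± 0.13) and Rps3 (-0.59 ± 0.11), and of 76 mitochondrial ones 2 rose and 8 fell (10.5%), such as Mrps25 (0.43 ± 0.11), Mrps34 (-0.83 ± 0.13) and Mrps26 (-0.80 ± 0.13).

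Translation factors were near background, with 5 of 53 up and 6 down. Eif2s2 and Eif6 rose by 0.37 and 0.30, and Eif4h fell by 0.43. Eif4ebp1, the repressor of cap-dependent initiation, fell by 1.56 (limma adjusted p = 5.1e-06, or -0.97 with 100 added). RNA polymerase II and III and general factors had 7 of 89 up and 12 down (13.5%). Gtf3c4 and Gtf2e1, general factors of polymerase III and II, fell, with log2 changes of -1.59 and -1.63, as did the elongation kinase Cdk9 (-0.72), while Ccnh and Polr2g rose by 0.52 and 0.27. The other probe sets of Gtf3c4 (-0.37) and Cdk9 (-0.61) were not called, and that of Ccnh rose (0.81). Of 62 splicing genes 3 rose and 6 fell, among them Prpf38b (0.66 ± 0.15) and Srsf9 (-0.71 ± 0.11).

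Energy and redox metabolism were mixed. The respiratory chain had 2 of 79 genes up and 7 down (8.86%), near background. Uqcrc1, a core subunit of complex III, nevertheless fell from 1313.0, 1103.6, 1201.9 and 1142.3 to 533.9, 375.4, 478.4 and 400.6 (-1.36 ± 0.11, limma adjusted p = 6.6e-08), and Atp5g3 and Cox6c fell by 0.69 and 0.42, with 0.02 (not called) at the other probe set of Cox6c. In glycolysis and lactate metabolism 1 of 27 rose and 5 fell (18.5%). The falls included Pfkfb3, which stimulates glycolysis (-1.47), the lactate carrier Slc16a1 (-1.01) and Ldhc, a germ-cell lactate dehydrogenase (-0.88). The other probe sets of Pfkfb3 (-0.07) and Slc16a1 (0.06) were not called, and that of Ldhc fell (-0.83). Ldha rose by 1.08 from a low level (0.60 with 100 added). Cholesterol synthesis had 3 of 20 up and 3 down, with Fdft1 at 0.45 ± 0.12, Tm7sf2 at -0.74 ± 0.12 and Pmvk at -1.44 ± 0.27 (-0.87 with 100 added).

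Antioxidant genes had 2 of 45 up and 8 down (17.8%), with Glrx up by 0.39 and Gpx1 and Pgd down by 0.76 and 0.75. The adjusted p of these falls was 0.00018 and 0.00045 in the limma fit. Of 38 amino acid transporters 1 rose, the cystine carrier Slc7a11 (0.88 ± 0.14), and 1 fell. The proteasome had 3 of 43 up and 3 down, with the catalytic subunit Psmb5 at -0.63 ± 0.11. The proteasome inhibitor Psmf1 rose by 0.56 ± 0.10 on 1 probe set, and its 3 others gave -0.06 to 0.00, not called. In the Trim, F-box and other ubiquitin ligase genes 10 of 119 rose and 14 fell, besides Trim31 the F-box genes Fbxo15 (1.08 ± 0.16), Fbxl17 (0.82 ± 0.10) and Fbxo8 (0.50 ± 0.09) among the rises, and the cullins Cul4a (-1.01 ± 0.18) and Cul5 (-1.18 ± 0.24) and the F-box gene Fbxo45 (-0.73 ± 0.14) among the falls. The 2 other probe sets of Cul5 gave 0.21 and 0.50 (limma adjusted p = 0.60 and 0.073), opposite in sign to its fall.

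Vesicle traffic held some of the clearest single changes within shares near background, with 7 of 128 genes up and 15 down (11.7%). Rab31, a GTPase of the trans-Golgi network and endosomes, gave 867.9, 817.0, 825.8 and 869.4 and then 302.6, 276.8, 261.0 and 298.8 (-1.47 ± 0.13, limma adjusted p = 1.8e-07). The other probe set of Rab31, at lower means of 140.5 and 138.8, gave 0.01 ± 0.18 and was not called, so this fall rests on a single probe set. Rab5a, the GTPase of early endosomes, gave 1041.0, 1127.7, 1258.4 and 1128.7 and then 428.0, 396.9, 434.2 and 703.0 (-1.2 ± 0.14). Rab40c fell by 0.97. The late endosome GTPases Rab7 and Rab9 rose by 0.32 and 0.43, and Sec16b, of the endoplasmic reticulum exit sites, rose by 1.2 ± 0.17. In lysosomes and autophagy, where 2 of 65 rose and 3 fell, the cathepsin Ctsb went from 2824.9, 2586.4, 2093.8 and 2841.7 to 1390.2, 1206.3, 1140.6 and 1379.6 (-0.99 ± 0.11), and Ctsd fell by 0.63.

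The DNA damage checkpoint and the Bcl2 family had 4 of 35 genes up (11.4%) and 6 down (17.1%). Trp63, the guardian of oocyte genome integrity, gave 780.3, 969.2, 1054.5 and 1133.7 and then 660.5, 605.6, 551.8 and 689.8 (-0.62 ± 0.12, limma adjusted p = 0.00075), in a decline from 1508.9 in primary to 428.3 in large antral oocytes. The histone variant H2ax fell by 0.52 and the checkpoint clamp subunit Rad9a by 1.52 (-1.0 with 100 added). Mdm4, a regulator of the p53 family, rose by 0.49 ± 0.11 on 1 probe set, while its 3 others gave -0.09 to 0.07 and were not called. DNA replication was near or below background, with 2 of 54 up and 3 down, and the thymidine kinase Tk1 fell by 0.55.

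**Figure D5:**
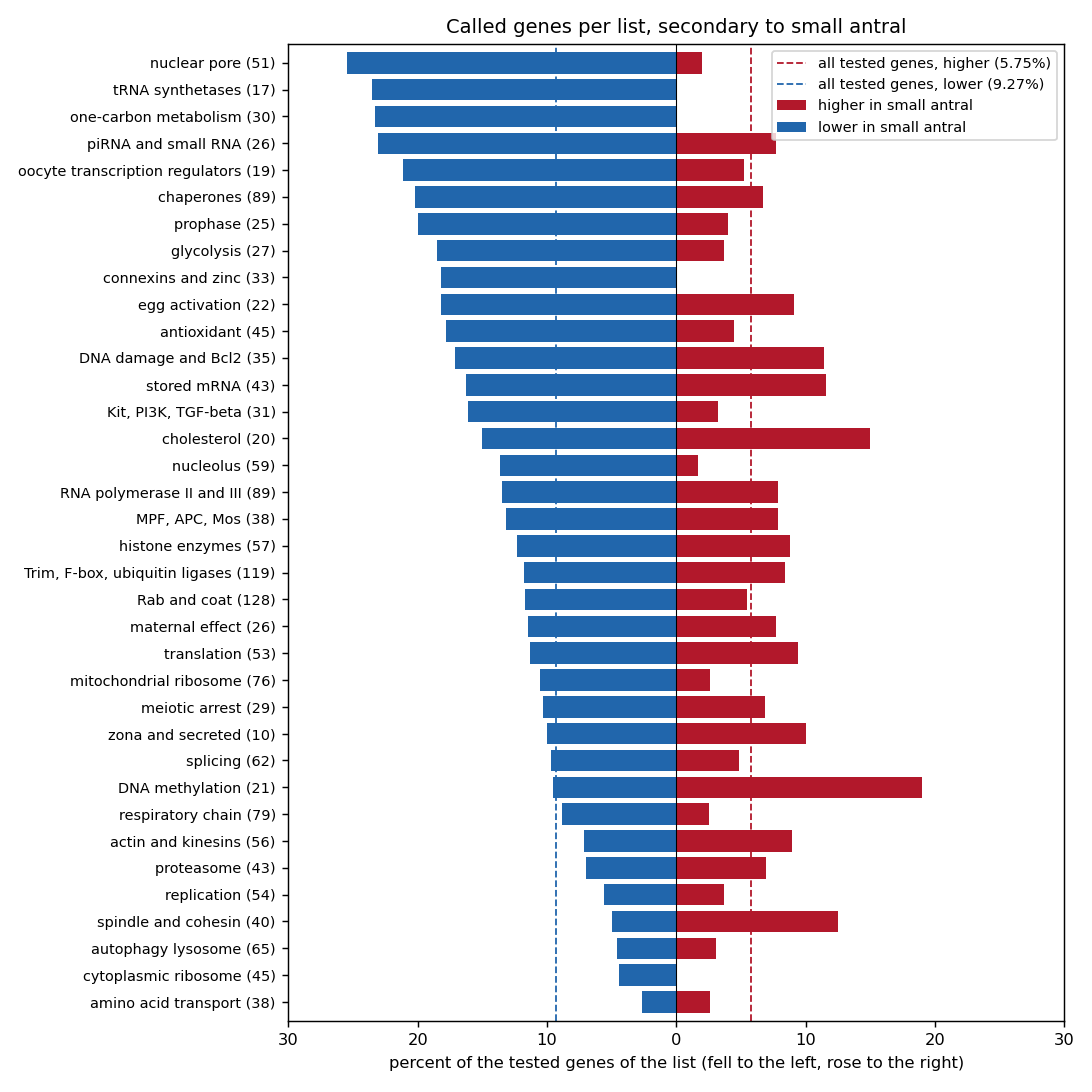
Percent of the tested genes of each of 36 lists that were called lower (blue, to the left) or higher (red, to the right) in small antral than in secondary oocytes, with the number of tested genes in parentheses and dashed lines at the shares among all tested genes (9.27% and 5.75%). Nuclear pore, tRNA synthetase and one-carbon genes have the longest bars to the left, at 25.5%, 23.5% and 23.3%, and DNA methylation and cholesterol synthesis have 19.0% and 15.0% to the right.

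Measures of RNA quality moved with the stage in opposite directions for the 2 control transcripts on 430A. The log2 ratio of the 3′ to the 5′ probe set of Actb was 2.28 to 2.47 in secondary and 2.43 to 3.22 in small antral samples (exact permutation test, two-sided, p = 0.0571), and that of Gapdh was 2.97 to 3.16 and 2.82 to 2.95 (p = 0.0286, the smallest possible). Their part in the changes was not tested.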

How the data were processed

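Each sample was 1 array hybridised with labelled RNA from pooled oocytes. The deposited values are linear MAS5 intensities, 1 per probe set, per the submitters' processing notes, in 1 table per array type. No version of MAS5 is given in the sources used here. Scaling brought the trimmed mean (2% trimmed) of every array to 500, then 32 was added and log2 taken. Probe sets that reached 100 on at least 4 of 16 arrays were tested in each table with limma 3.58.1 (lmFit, then eBayes with its trend option, in R 4.3.3; two-sided), with the 4 stages as groups and Benjamini-Hochberg adjustment within the table; a call needs an adjusted p under 0.05. A gene was represented by 1 probe set, 430A before 430B. The names are those of the platform annotation: a single symbol for 20380 probe sets of 430A and 14565 of 430B, several for 691 and 241, and none for 1555 and 7605. On 430A 100 probe sets, Psmb5 and Rab7 among those named, hold values that are not rounded to 0.1 like the rest, for a reason not given in the sources used here. Probe sets of paralogs or repeated sequence may read more than 1 gene.

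Named genes are the 12 largest rises and falls on 430A and the 6 largest on 430B that were called with non-overlapping groups, 25 fixed oocyte genes, and up to 4 called members of each list in each direction. The members and lists were chosen with earlier results of these data known. On simulated data with 100 changed probe sets of each size, changes of 0.5 and 1 on the log2 scale were recovered in 33% and 79% on 430A and 2% and 30% on 430B. The simulated noise was normal and independent between probe sets, and far fewer probe sets changed than were called in the data. The adjusted p depends on how many probe sets change, so these shares do not give the recovery in the data themselves. Promoters came from RefSeq (GRCm38.p6) and matched 11879 of 14925 tested genes. The alternatives tried were other scalings, added constants, filters and fits, and each replicate left out. Some genes are not reported here.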

Additional observations from a re-analysis of the deposited data

Results flagged for a closer look

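In groups of 4 arrays, a single array stood apart by Dixon's criterion (the gap to the next array over the range of the group) in 10 of 360 groups examined, which is 2.78%, where chance gives about 1 in 20. Among oocyte genes, Zp1 gave 9379.8 in small antral replicate 1 and 11647.5 to 11959.8 in the other arrays. Lhx8 gave 3323.2 in secondary replicate 3 beside 3826.8 to 3876.9, and Pde3a gave 142.9 in secondary replicate 1 beside 85.3 to 90.7. Man1a was lowest in secondary replicate 4, at 109.5 beside 130.7 to 134.7. The conjugating enzyme Ube2c gave 644.0 in small antral replicate 3 beside 748.8 to 768.7.

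The polymerase II factor Gtf2e1 gave 197.8 in small antral replicate 3 on 430B beside 237.0 to 239.8, and Cdk9 gave 570.5 in small antral replicate 4 beside 492.0 to 503.1. Pfkfb3 gave 241.6 in secondary replicate 2 beside 199.2 to 206.0. Rab5a had the widest gap in proportion to its level, with 703.0 in small antral replicate 4 beside 396.9 to 434.2. The log2 ratio of the 3′ to the 5′ probe set of Gapdh was 2.95 in small antral replicate 2 beside 2.82 to 2.84.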

How the results depend on the processing

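On 430A the counts of rises and falls were 861 to 1006 and 1435 to 1632 when single replicates were left out, and on 430B 300 to 383 and 456 to 560. With median scaling 1079 rose and 1316 fell on 430A, and with quantile normalization 1206 and 1485, against 1078 and 1674. The median log2 change over all tested 430A probe sets was then 0.022 and 0.017, against -0.01. The excess of falls on 430A was thus smaller with these scalings. On 430B they gave 290 and 499, and 424 and 620, against 400 and 606. Without the mean-variance trend 250 probe sets rose on 430B, and without the 3 small antral samples with the secondary protocol text 105 rose and 312 fell. No pairing by replicate number is stated for the samples. Same-numbered samples' deviations correlated by 0.036 to 0.148 on 430A and 0.007 to 0.027 on 430B, all positive. Those of different numbers correlated by -0.186 to 0.182 and -0.035 to 0.028. These values cannot decide whether the numbers pair the samples, because the ranges overlap. With the replicate block 1063 rose and 1644 fell on 430A, and 391 and 551 on 430B; Kit was then called (adjusted p = 0.036, limma). Uncalled genes that changed sign were Nobox (-0.181 to 0.012 over the arrays left out, positive without small antral replicate 1), Lhx8 (0.003 with median scaling), Gja4 (-0.103 to 0.006, positive without small antral replicate 3), Pde3a (-0.339 to 0.036, with 0.027 without secondary replicate 1 and 0.036 without small antral replicate 1) and Wee2 (-0.039 with quantile normalization, and -0.020 to 0.073 over the arrays left out, negative without secondary replicate 2 at -0.020 and small antral replicate 4 at -0.007). The cause was not tested. The median SE was 0.34 on 430B against 0.16 on 430A. In the simulation, where far fewer probe sets changed than were called in the data, 30% of 2-fold changes were recovered on 430B against 79%.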

Other observations

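Of 462 genes with at least 2 called probe sets, 42 (9.09%) had calls in both directions. Cggbp1, which binds CGG repeats, was one. One probe set went from 1428.2, 1129.5, 1072.7 and 1184.2 in secondary to 2483.6, 2417.9, 2518.7 and 2484.5 in small antral oocytes (1.03 ± 0.11), and another from 1149.5, 1058.2, 1074.0 and 1147.9 to 533.5, 457.4, 392.5 and 509.0 (-1.18 ± 0.11). Neither pair of groups overlapped. Sod2, the mitochondrial superoxide dismutase, had changes of 0.65 and -1.85, Lin7c of 1.34 and -0.66, and Tacc1 of 1.0 and -0.80. These genes were picked after their values were seen.

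Few genes went between background and a clear signal in all arrays. A rise from under 100 in all 4 secondary arrays to 200 or more in all 4 small antral arrays was seen for 3 probe sets on 430A (Trib2, Cd1d1 and Cntn6) and 4 on 430B (Ccdc173, Fstl5, Syt11 and Selp). The reverse was seen for 11 on 430A, among them Ighmbp2, Aff4, Arhgap5 and Simc1 beside genes described above, and for 7 on 430B, among them Pde7a, Abtb2 and Med12l.

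The share of rises and falls varied with the mean signal of the gene on 430A. Of 2740 genes with signals of 500 to 2000, 8.61% rose and 15.9% fell, while of 1027 genes with signals of 2000 to 10000, 13.5% rose and 9.35% fell. Of 479 genes on the X chromosome 7.10% rose and 10% fell, near the 5.75% and 9.27% of all tested genes. Other chromosomes lay farther from those shares, such as chromosome 3 with 7.78% risen and chromosome 8 with 12.5% fallen.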
